A study of Mus musculus with 2 samples.

Results

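Early spermatocytes, male germ cells that had entered meiosis and carried mRNA for the break and pairing machinery of prophase I, were selected on the measured UMIs of marker genes in each cell barcode of mouse testis suspensions. A UMI, or unique molecular identifier, is the tag of a captured RNA molecule. A barcode was taken when it held one for at least 3 of the 6 genes Prdm9, Rad51ap2, Dmc1, Meiob, Gm960 and Inca1, for fewer than 3 of the 5 late genes Piwil1, Pou5f2, Pabpc6, Nutm2 and Ccna1, and for fewer than 4 of 7 Sertoli genes, and when 4 Leydig steroid genes made up under 40 of 10000 UMIs. In this way 69 of 5756 WT barcodes and 271 of 7012 KO barcodes were selected, 340 of 12768 in all. The WT library came from testes of 12-week-old C57BL/6 mice and the KO library from Alkbh5-/- mice of the same age, in which the RNA demethylase gene is inactivated in every cell, the somatic cells included. There was 1 library per genotype, the sources differ on whether a library held 1 or 3 animals, and cells of a library are not replicates. All intervals therefore cover counting error only and no test between genotypes was made.

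In the first stages of meiotic prophase, leptotene and zygotene, chromosomes form an axis of cohesin, SYCP2, SYCP3 and HORMAD proteins, PRDM9 marks recombination sites, SPO11 and its partners cut the DNA, and the recombinase DMC1 drives invasion of the homologous chromosome. The transverse filament protein SYCP1 and the central element proteins of the synaptonemal complex then join the homologs. At pachytene, the next stage, the unpaired X and Y chromosomes are transcriptionally silenced. ALKBH5 removes the methyl group of N6-methyladenosine (m6A) from RNA.

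The 69 WT members held 715543 UMIs, with a median of 7638 per cell and a range from 5157 to 65947. The 271 KO members held 2221910 UMIs, with a median of 6853 and a range from 4806 to 36937. Over 20000 UMIs were held by 3 WT and 7 KO members. In all, 10 WT and 40 KO members exceeded this number or held at least 100 UMIs of 10 spermatid markers per 10000. These could carry RNA of a second cell, which was not tested, and counts without them are given where they lead. Scrublet called 1 WT and 23 KO members doublets, and they were kept. Across the libraries 45 barcode sequences were shared, and 3 members carried such a sequence.

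Because the 6 genes chose the members, their levels are a description. Inca1 was found in 62 of 69 WT and 217 of 271 KO members. Dmc1, the meiotic recombinase, was found in 58 and 248. Prdm9, the histone methyltransferase that places recombination sites, was found in 47 and 198. Meiob, which encodes a single-stranded DNA binding protein, was found in 43 and 126, Rad51ap2 in 34 and 151, and Gm960 in 23 and 127. Exactly 3 of the 6 genes were seen in 33 WT members (47.8%) and 114 KO members (42.1%), at the edge of the rule. Just outside it, barcodes with 2 of the genes numbered 89 in WT and 251 in KO. The level of Sycp1, a gene outside the rule, was 458 counts per 1000000 UMIs (CPM) in WT barcodes with 2 of the genes and 1444 with 3, and 930 and 2396 in KO. It reached 5774 CPM in WT and 5589 CPM in KO members with all 6.

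The label was then held against Sycp1, Sycp3, Hormad1 and Stra8, which the rule did not use. Sycp1 had a UMI in 97.1% of WT and 99.6% of KO members, and the axis genes Sycp3 and Hormad1 each in 95.7% and 98.5%. Stra8, the retinoic acid target that opens meiosis, had a UMI in 38 of 69 WT and 201 of 271 KO members. These genes of meiotic entry and synapsis were thus present in most members. Their detection in the neighbouring stages was not compared, so it does not separate the members from those stages. In sums, 15 axis and cohesin genes stood at 6729 CPM in WT and 9461 CPM in KO members. They were lower but present in spermatogonia (2009 and 2751 CPM) and late spermatocytes (1780 and 2129 CPM), both defined below. The late genes and the somatic limits were part of the rule, so their values are a description. Of the 5 late genes, Pabpc6 was seen in 18 WT (26.1%) and 59 KO members (21.8%), Piwil1 in 8 and 25, Ccna1 in 7 and 22, Pou5f2 in 0 and 2, and Nutm2 in none of either library. The somatic limits left out 18 KO barcodes that met the 3-gene criterion, and no WT barcode.

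Early spermatocytes made up 1.20% of the WT barcodes (exact Clopper-Pearson 95% interval, 0.934 to 1.51) and 3.86% of the KO barcodes (3.43 to 4.34), a KO to WT ratio of 3.22 (2.47 to 4.26). Spermatogonia, here barcodes with at least 4 of 10 spermatogonial markers, had a ratio of 4.75 (3.91 to 5.81), and late spermatocytes, with at least 4 of the 5 late genes, had a ratio of 0.668 (0.561 to 0.795). The denominator decided how large the difference was. Taken over early spermatocytes, spermatogonia and late spermatocytes together, the WT share of 14.2% and the KO share of 22.3% gave a ratio of 1.57 (1.20 to 2.07). Taken over early spermatocytes and spermatogonia alone, the WT share of 36.1% exceeded the KO share of 27.7%, but the ratio of 0.768 had a counting interval that included 1 (0.588 to 1.02). With every barcode thinned to 5729 UMIs, which left out 362 WT and 914 KO barcodes, the rule found 46 of 5394 (0.853%) and 165 of 6098 (2.71%), a ratio of 3.17.

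**Figure D1:**
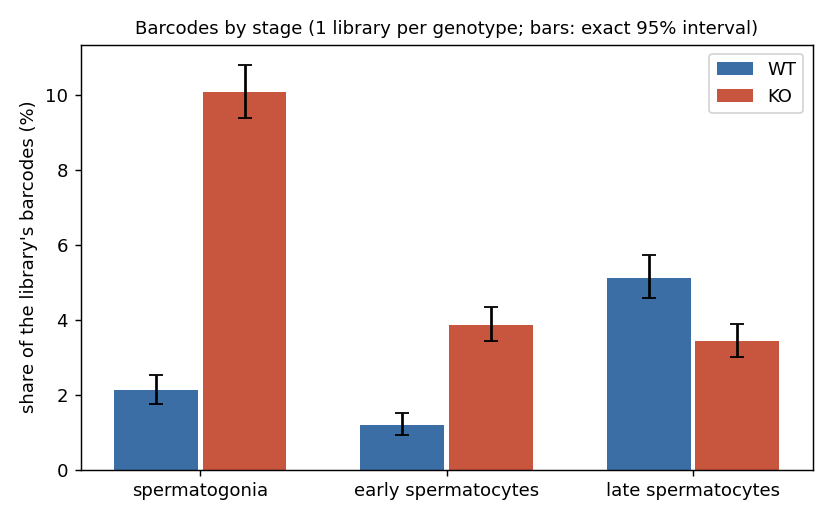
Share of each library's barcodes (%) that met the rule for spermatogonia, early spermatocytes or late spermatocytes, in WT and KO (1 library each); bars show the exact 95% interval for counting error. Early spermatocytes were 1.20% in WT and 3.86% in KO, while late spermatocytes were 5.13% in WT and 3.42% in KO.

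To see which genes set these cells apart, summed members were compared with summed spermatogonia and late spermatocytes of the same library. The stage contrast of a gene was the smallest of its 4 log2 ratios of CPM (1 CPM added), so a high value means higher than both neighbours in both libraries. It was ranked over genes seen in at least 25% of the members of each library. It was highest for Rad51ap2 at 4.86, followed by Pbx3 at 4.66 and Meiob at 4.54. Rad51ap2, Meiob, Inca1 and Prdm9 are among the 15 highest and belong to the rule. Of the 11 others, Pbx3, a homeobox gene (chr2:34171457-34373142, GRCm38), stood at 95.03 CPM in WT and 99.5 CPM in KO members, against 2.21 and 2.98 CPM in spermatogonia and 1.75 and 1.98 CPM in late spermatocytes. Hfm1, the DNA helicase of meiotic crossing over, stood at 205 and 269 CPM in members, against 9.56 and 23.2 CPM in spermatogonia. Rad21l, a kleisin subunit of meiotic cohesin, stood at 89.4 and 159 CPM in members and at 0 and 0.180 CPM in late spermatocytes.

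Ccnb3, an X-linked cyclin gene, was found at 123 CPM in WT and 189 CPM in KO members, with 3.68 and 17.7 CPM in spermatogonia. Gm4969, known as Meiosin, the partner of STRA8 in starting the meiotic program, was found at 74.1 and 140 CPM, with 7.36 and 12.9 CPM in spermatogonia. It lies next to Six5 on chromosome 7 in the opposite orientation, so that the genes end toward each other. Six5 ends at position 19098549 and Gm4969 spans 19099046 to 19118368. Six5 was also in this set at 78.3 and 116 CPM. Whether the authors' counting used the strand is not given in the sources used here, so reads of these neighbours may not be separable. The surface proteins of germ cells Tex101 and Ly6k were the most abundant of the set, with Tex101 at 2274 CPM in WT and 2780.5 CPM in KO members. H2-K1, a class I histocompatibility gene, stood at 475 and 434 CPM, against 33.9 to 50.2 CPM in the neighbours.

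The promoters of these genes were searched, since they share a pattern of expression. The RefSeq table (GRCm38.p6) held 11 of the 15, and the 250 bases before the start of each were read on both strands. CNCCTCAG, the letters reported for STRA8 and MEIOSIN, occurred in 2 of the 11 (Hfm1 and Inca1) and in 6.39% of all 27025 promoters of the table. TTCCCGC, of the E2F factors, occurred in 1 (Rad51ap2) and in 3.84% of all. CACGTG, the E-box, occurred in 0 of the 11 and in 6.05% of all. A closer background was the 3397 promoters of genes compared between KO and WT members below. Among them CNCCTCAG occurred in 7.71%, TTCCCGC in 8.74% and CACGTG in 9.71%, each higher than over all promoters. Whether the 11 differ from either background was not tested. The motifs do not overlap in these windows. The promoters with a match are shown 5′ to 3′, with the matched letters, on either strand, in capitals; they are chr5:106925891-106926140 on the minus strand for Hfm1, chr11:70700156-70700405 on the minus strand for Inca1 and chr12:11455805-11456054 on the plus strand for Rad51ap2. A match is a description of the letters and not evidence of a site.
Hfm1: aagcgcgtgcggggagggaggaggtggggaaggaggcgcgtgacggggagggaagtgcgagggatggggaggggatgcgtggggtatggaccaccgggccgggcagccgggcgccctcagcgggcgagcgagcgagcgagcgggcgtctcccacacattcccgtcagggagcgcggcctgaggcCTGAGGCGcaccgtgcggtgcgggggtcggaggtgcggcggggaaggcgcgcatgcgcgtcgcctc
Inca1: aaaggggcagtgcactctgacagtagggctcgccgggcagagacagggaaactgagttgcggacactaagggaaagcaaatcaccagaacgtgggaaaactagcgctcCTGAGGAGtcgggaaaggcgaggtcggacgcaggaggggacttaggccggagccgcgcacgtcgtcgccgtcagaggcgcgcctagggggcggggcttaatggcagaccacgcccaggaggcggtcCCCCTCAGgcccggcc
Rad51ap2: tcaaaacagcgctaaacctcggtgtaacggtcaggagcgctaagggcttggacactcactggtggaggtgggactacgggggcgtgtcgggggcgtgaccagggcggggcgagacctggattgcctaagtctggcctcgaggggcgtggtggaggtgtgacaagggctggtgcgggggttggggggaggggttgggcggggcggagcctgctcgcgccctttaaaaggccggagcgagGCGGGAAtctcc

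Outside these 15, the genes with the largest ratio to spermatogonia included Tesmin, at 162 CPM in WT and 169 CPM in KO members against 5.15 and 7.62 CPM, and the telomere attachment genes Terb1 and Majin. Hormad1 stood at 2038 CPM in WT and 2880 CPM in KO members, against 197 and 274 CPM in spermatogonia. The largest ratios to late spermatocytes included Stra8, at 1163 and 1095 CPM against 0.135 and 10.4 CPM, and Dazl, a germ cell RNA-binding protein gene, at 1934 and 2741 CPM against 18.2 and 39.6 CPM. Prss50 stood at 491 and 598 CPM in members against 0 and 2.34 CPM in late spermatocytes. Esco2, which acetylates cohesin, stood at 577 and 789 CPM against 2.83 and 10.6 CPM. Members thus stood above the later neighbour for genes such as Dazl and Stra8, and above the earlier one for genes such as Tesmin.

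**Figure D2:**
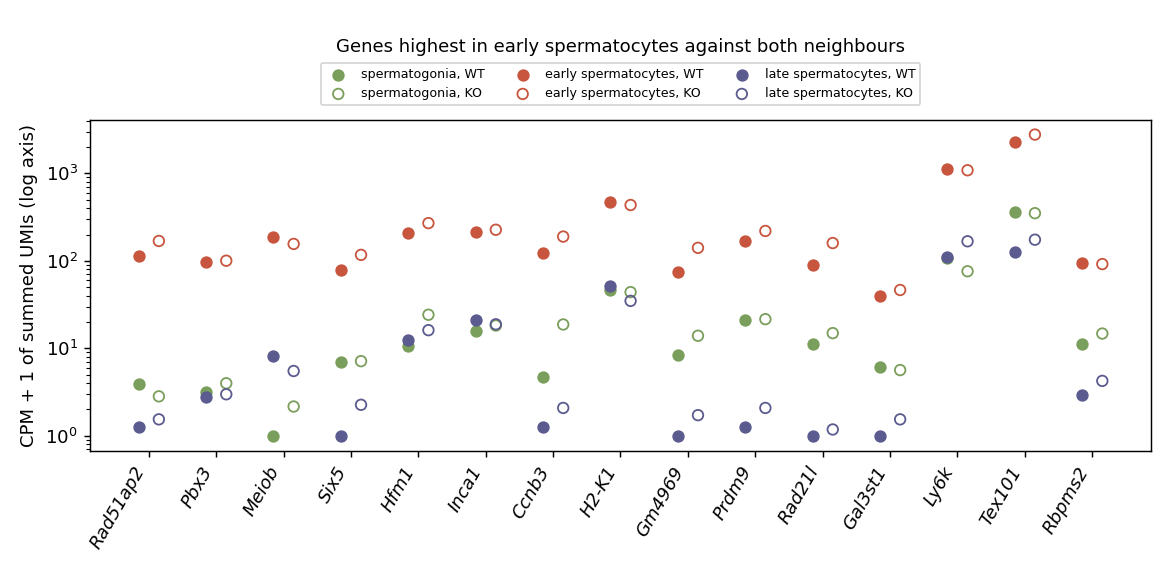
CPM + 1 of summed UMIs (log axis) of the 15 genes with the highest stage contrast, in spermatogonia (green), early spermatocytes (red) and late spermatocytes (blue-violet); filled circles are WT and open circles KO. In each gene both red circles lie above all others, from Gal3st1 at 39.1 and 45.5 CPM to Tex101 at 2274 and 2780.5 CPM.

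The members were not uniform. They were divided by markers of their neighbours into a spermatogonial side (at least 2 spermatogonial markers, no late gene; 21 WT and 111 KO), a middle (fewer than 2 and none; 24 and 76), a late side (at least 1 late gene; 12 and 38) and members with both (12 and 46). On the spermatogonial side, Stra8, itself one of those markers, stood at 3047 CPM in WT and 1839 CPM in KO, against 148 and 343 CPM on the late side. The replication group of 20 genes, which includes the MCM helicase, was at 2822 and 2520 CPM on the spermatogonial side, 1671 and 1952 CPM in the middle and 642 and 1404 CPM on the late side. Meiob, a rule gene, went the other way, from 53.5 and 99.2 CPM on the spermatogonial side to 416 and 202 CPM in the middle. Spo11, the enzyme that cuts DNA, was at 35.6 and 14.7 CPM on the spermatogonial side and at 144 and 72.4 CPM in the middle. The axis and cohesin group was at 6808 and 8575 CPM on the spermatogonial side and 10181 and 12287 CPM in the middle. In both libraries the replication group was therefore highest, and Spo11 lowest of these 2 ranges, on the spermatogonial side. The WT late side held the barcode of 65947 UMIs and had spermatid markers at 56711 CPM, against 15170 CPM in KO, so its sums rest on few cells.

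X-linked genes gave 2.08% of the UMIs of WT members (95% interval, 2.05 to 2.11) and 2.43% of those of KO members (2.41 to 2.45), so that the ratio was 1.17 (1.15 to 1.19). The ratio was 1.15 (1.14 to 1.17) in spermatogonia, 1.90 (1.85 to 1.95) in late spermatocytes and 0.999 (0.985 to 1.01) in Leydig barcodes. In single members the share ran from 0.0903% through a median of 2.51% to 3.59% in WT, and from 0.0357% through 2.69% to 5.86% in KO, so the libraries overlapped. The median was 2.81% in WT and 2.75% in KO on the spermatogonial side, 2.55% and 2.84% in the middle, and 1.23% and 2.21% on the late side. The WT late side carries the limit given above. With at least 4 of the 6 rule genes required, the log2 ratio of the pooled share was 0.046 in place of 0.23. The X-linked difference was thus not steady over the way members were chosen.

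**Figure D3:**
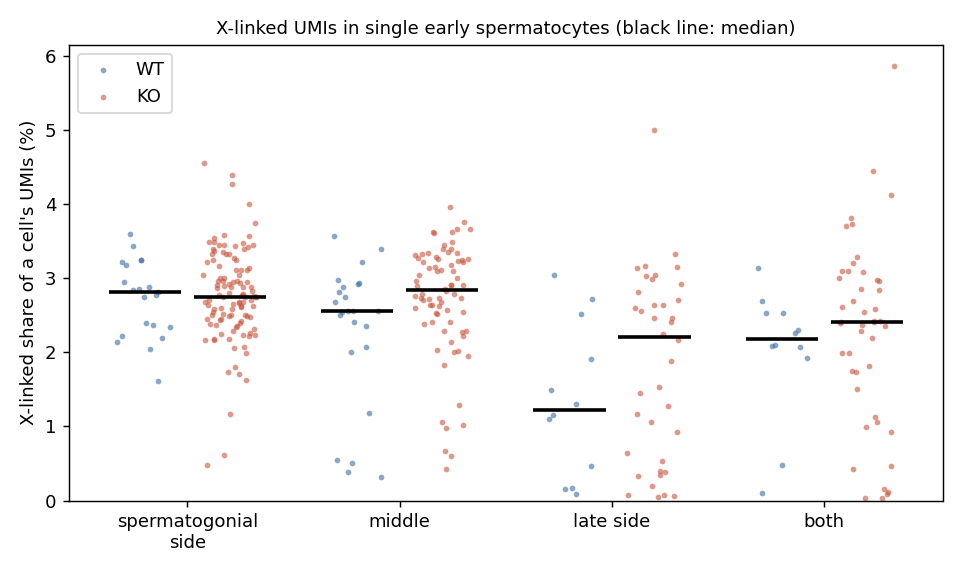
Percent of UMIs from X-linked genes in each early spermatocyte (1 point per cell), for WT (blue) and KO (red) in the 4 ranges of members; black lines are medians. Most cells lie above 1%, and cells below 1% had their highest share on the late side, with 4 of 12 WT and 12 of 38 KO cells.

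A limit of 1%, set after these values were seen, set off 10 WT members (14.5%, 7.17 to 25.04) and 27 KO members (9.96%, 6.67 to 14.2) with a low X-linked share. None of the 21 WT and 2 of the 111 KO members on the spermatogonial side were among them, and for WT a count of 0 allows a share of up to 16.1% (exact upper limit). The low cells had a median depth of 8041 UMIs in WT and 11247 in KO, against 7421 and 6693 in the other members. Their median number of late genes was 1 in both libraries, against 0. For the 12 genes of double-strand break formation they had a median of 6.41 UMIs per 10000 in WT and 7.44 in KO. The other members had 24.6 and 26.5, and Prdm9 and Gm960 of this group belong to the rule. The low cells also differed in other groups. For the 20 genes of the piRNA pathway, which guards the germ line against transposons, they had 45.5 and 46.9, against 17.5 and 19.09. Piwil1, a member of that group, is also a late gene of the rule. The median of the low cells for Stra8 was 0 in both libraries. The axis and cohesin group was at 133 and 127 per 10000, against 79.1 and 103. The low X-linked share of these 37 cells is fixed by the limit that chose them, and they met the rule. Whether they are of the leptotene to zygotene stage was not tested.

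Mitochondrially encoded genes gave 3.54% of WT and 5.07% of KO member UMIs. The ratio was 1.43 (1.41 to 1.45) in members, and it was 1.45 in spermatogonia, 1.39 in late spermatocytes and 1.00 in Leydig barcodes. Ribosomal protein genes gave 7.65% and 8.46%, a ratio of 1.11 (1.10 to 1.12) that fell below 1 when each cell had equal weight (log2 -0.032).

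Alkbh5 itself, the targeted gene, had 41 UMIs in 34.8% of WT members (57.3 CPM) and 0 UMIs in the 271 KO members. With the KO sum set at 3 UMIs over the group, the limit for a count of 0, it was at least 42.4-fold lower. In WT members it stood at 143 CPM on the spermatogonial side, 44.4 CPM in the middle and 12.7 CPM on the late side, and in whole stages at 52.2 CPM in spermatogonia and 20.4 CPM in late spermatocytes. The range values divide the 41 UMIs and were given no interval, and the WT late side carries the limit given above.

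Genes were then compared between KO and WT members. A gene was called when at least 25% of the members of either library carried it and the natural log of its mean per 10000 UMIs, with 1 added, differed by at least 0.25. Of 4232 genes with enough cells, 77 (1.82%) were called higher in KO and 129 (3.05%) lower. Log2 ratios of summed UMIs are given below with their exact 95% interval. Their median over the 4232 genes was 0.13, and -0.03 by the mean over cells, so values near 0.13 lay at the centre of all genes.

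Many genes of the lower set had higher levels in spermatid-rich barcodes. Of the 129 genes, 61 (47.3%) were over 2 times higher in 4785 barcodes rich in spermatid markers than in the members, as were 355 (8.39%) of the 4232. Prm1, a protamine that packs sperm DNA, had 13098 UMIs in WT (18305 CPM, 100% of cells) and 17827 in KO (8023 CPM, 86.7%), a log2 ratio of -1.19 (-1.22 to -1.16). Cypt4 was at 1416 and 428 CPM, a log2 ratio of -1.73. The 10 spermatid markers together were at 30894 CPM in WT and 14870 CPM in KO members, a log2 value of -1.05 that became -0.41 with no late gene allowed and -2.01 without Scrublet doublets. The median member had 24.1 of their UMIs per 10000 in WT and 12.5 in KO, and Leydig barcodes, which should lack them, had 14.8 and 8.03 at median depths of 10077 and 7962 UMIs. Both Leydig medians lay inside the middle 50% of the members of their library. The part of free RNA in the spermatid values was not tested.

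Where the WT and KO sums came to 100 UMIs or more, 9 of the 10 lowest ratios belonged to Klhl10, Spata45, Rnf151, Fhl5, Efcab10, Cypt4, Nupr1l, BC049762 and 1700016K19Rik, with log2 values from -1.89 to -1.59. Over the alternatives these 9 genes stayed lower in KO, at values from -2.81 (Klhl10 without Scrublet doublets) to -0.66 (Efcab10 with at least 4 rule genes), and Cypt4 was at -0.72 with members thinned to equal depth. The lowest of the 10 was Alyref, which encodes an mRNA export factor (chr11:120592121-120598365). Alyref had 88 UMIs in WT members (123 CPM, 63.8% of cells) and 73 in KO members (32.9 CPM, 22.9%), a log2 ratio of -1.90 (-2.37 to -1.44). It was also lower in KO spermatogonia (-1.29) and late spermatocytes (-1.15), and spermatid-rich barcodes had it at 0.927 CPM. Under the 11 alternatives that gave calls at the 25% filter or stricter, 12 of the lower genes were called each time, 7 of them over 2 times higher in spermatid-rich barcodes. The other 5 were Alkbh5, Alyref, Rbmxl2, Hist1h1e and Ube2q2.

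Rbmxl2, a germ cell RNA-binding protein gene, did not reach that minimum with 46 UMIs in WT and 37 in KO, and its log2 ratio was -1.95 (-2.61 to -1.29). Hist1h1e, a linker histone gene, had 135 in WT and 159 in KO. Its log2 ratio was -1.40 (-1.74 to -1.06) in members and -0.19 in spermatogonia. Ube2q2, a ubiquitin-conjugating enzyme gene, had 45 in WT and 53 in KO (-1.40, -2.00 to -0.79).

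Of the 77 genes called higher in KO, none was over 2 times higher in spermatid-rich barcodes, and 4 (5.19%) were over 2 times higher in Leydig and Sertoli barcodes, near the 3.71% of all 4232 genes. These were Ptgds, Lcn2, B2m and Tmsb4x. Ptgds, a prostaglandin synthase gene on the Leydig list, had 1 UMI in WT members and 472 in KO members, in 36.2% of KO cells, against 16668 CPM in the somatic barcodes. Lcn2 had 3 UMIs in WT and 439 in KO (5.56, 4.002 to 7.84). The 6 Leydig markers summed to 18.2 CPM in WT and 317 CPM in KO members, with 2 of 6 at 0 in WT, and the 7 Sertoli markers to 4.19 and 90.9 CPM, with 5 of 7 at 0 in WT. The 7 macrophage markers summed to 9.78 and 104 CPM and the 6 stromal markers to 5.59 and 35.1 CPM, while the 4 endothelial markers had 2 and 3 UMIs. Leydig barcodes were 1.32% of the WT and 15.4% of the KO library, and the part of free RNA in these values was not tested.

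Of the other 73 genes called higher, 9 were called under all 11 alternatives. Hist1h2ba, a testis histone H2B gene (chr13:23933773-23934156), had 104 UMIs in WT (145 CPM) and 647 in KO (291 CPM), a log2 ratio of 1.00 (0.70 to 1.32), against -0.26 in spermatogonia. Rnf20, which ubiquitinates histone H2B, had 45 in WT and 317 in KO (1.18, 0.73 to 1.67). Ash1l, a histone methyltransferase gene, had 28 and 217, a log2 ratio of 1.32 (0.75 to 1.94). Mga, which encodes a subunit of a repressor of germ line genes, had 49 and 307, a log2 ratio of 1.01 (0.57 to 1.48). The remaining 5 were Nbeal1, Tiparp, Cdc42se2, Bcap31 and the processed pseudogene Gm11942. Gm11942 had 0 UMIs in WT and 170 in KO members, at least 18.2-fold higher with the WT sum at 3 UMIs, and also 0.736 and 99.4 CPM in spermatogonia; reads of a processed pseudogene cannot be told apart from those of its parent gene. The 10 highest ratios were those of Ptgds, Lcn2, Gm11942, Atp6ap1, Zfp398, B2m, Marf1, Ywhah, Vapb and Purb, of which Atp6ap1, an X-linked subunit gene of the proton pump, had 7 UMIs in WT and 93 in KO (2.10, 0.997 to 3.45) and stood at 62.8 CPM in the Leydig and Sertoli barcodes. Ywhah, Vapb and Purb had ratios from 1.37 to 1.38 and were not called, and Purb, a DNA-binding protein gene, had 14 UMIs in WT and 112 in KO.

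**Figure D4:**
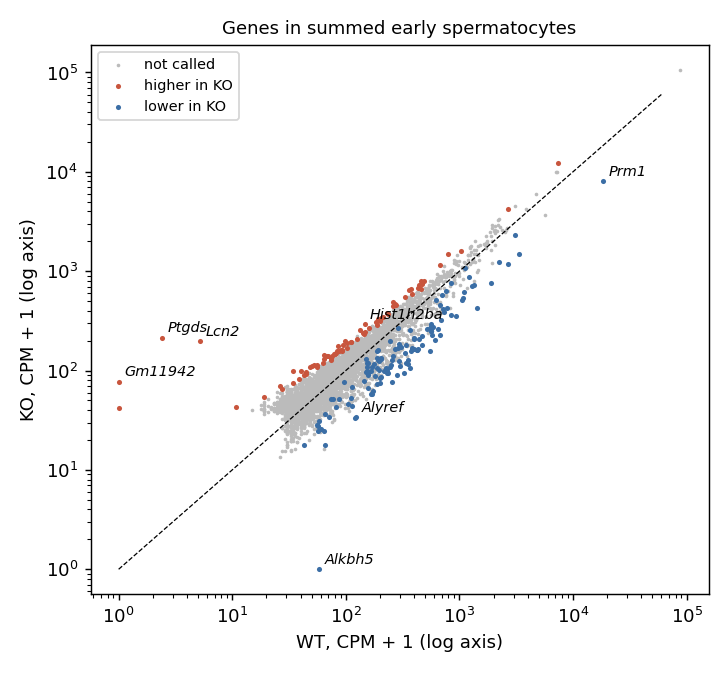
CPM + 1 in summed KO members against summed WT members (log axes) for the 4232 genes seen in 25% or more of either library's members; red points were called higher in KO, blue points lower, grey points not called, and the dashed line marks equality. Alkbh5 lies on the floor of the KO axis, Ptgds, Lcn2 and Gm11942 lie near the floor of the WT axis, and Prm1 is among the most abundant of the lower genes.

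Gene groups of meiotic prophase were described by their summed level and their calls. Meiotic entry genes, with Stra8, Dazl and Meioc, had 2 of 9 genes with enough cells called higher and none lower, where 1.82% of all genes were called higher and 3.05% lower, and their median log2 ratio was 0.55. Tex15, needed for meiotic recombination, was at 488 CPM in WT and 800 CPM in KO (0.71, 0.55 to 0.88), and Gm4969 had a log2 ratio of 0.92 (0.49 to 1.37). Stra8 was not called, with 832 UMIs in WT and 2433 in KO. In single cells the group had a median of 54.6 per 10000 UMIs in WT and 66.6 in KO, with ranges that overlapped.

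Chromosome axis and cohesin genes had 3 of 13 called higher and none lower (1.82% and 3.05% over all genes), with a median log2 ratio of 0.41. Sycp2, the axis protein that binds SYCP3, was at 674 CPM in WT and 1146 CPM in KO (0.77, 0.63 to 0.91). Rad21l had a log2 ratio of 0.83 (0.44 to 1.24) and Smc3, a core cohesin subunit, of 0.65 (0.47 to 0.83). Sycp3, at 1452 and 1804 CPM, and Hormad1 were not called. The summed group ran from 5.61 through a median of 87.1 to 193 per 10000 UMIs in WT cells and from 8.72 through 107 to 220 in KO cells. The log2 ratio of its sum was 0.49, and 0.24 with equal weight per cell.

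For the groups that follow, 1.82% of all genes were called higher and 3.05% lower. Among genes of break formation, none of 9 were called and the median log2 ratio was 0.37. The log2 ratio of the group sum was also 0.37, and 0.0053 with at least 4 rule genes. Spo11 stood at 55.9 CPM in WT and 47.3 CPM in KO, and Zcwpw1, a reader of the PRDM9 mark, at 370 and 480 CPM. Of 15 genes of end processing and the break response, Atm, the kinase that answers DNA breaks, was called higher at 102 and 189 CPM (0.89, 0.52 to 1.27). Of 15 strand invasion genes, only Meiob was called, and lower, with 135 UMIs in WT and 345 in KO. Its log2 ratio of sums was -0.28 with an interval from -0.57 to 0.02, and as a rule gene it was used in choosing the members. Dmc1, not called, was at 207 and 299 CPM.

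Of the 6 genes of the transverse filament and central element none were called, where 1.82% of all genes were called higher and 3.05% lower. Sycp1 was at 2183 CPM in WT and 3240 CPM in KO (0.57), and Syce3 at 454 and 372 CPM (-0.29). Of 9 crossover genes none were called, with Tex11, an X-linked gene needed for crossovers, at 172 and 177 CPM. Of 6 telomere attachment genes none were called, and in 14 replication genes none were called, with Pcna at 219 and 262 CPM. Cohesion and division genes had 2 of 11 called higher and none lower (1.82% and 3.05% over all genes). These were Top2a at 437 and 726 CPM (0.73, 0.55 to 0.91) and Mki67 at 110 and 193 CPM (0.81, 0.46 to 1.17).

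**Figure D5:**
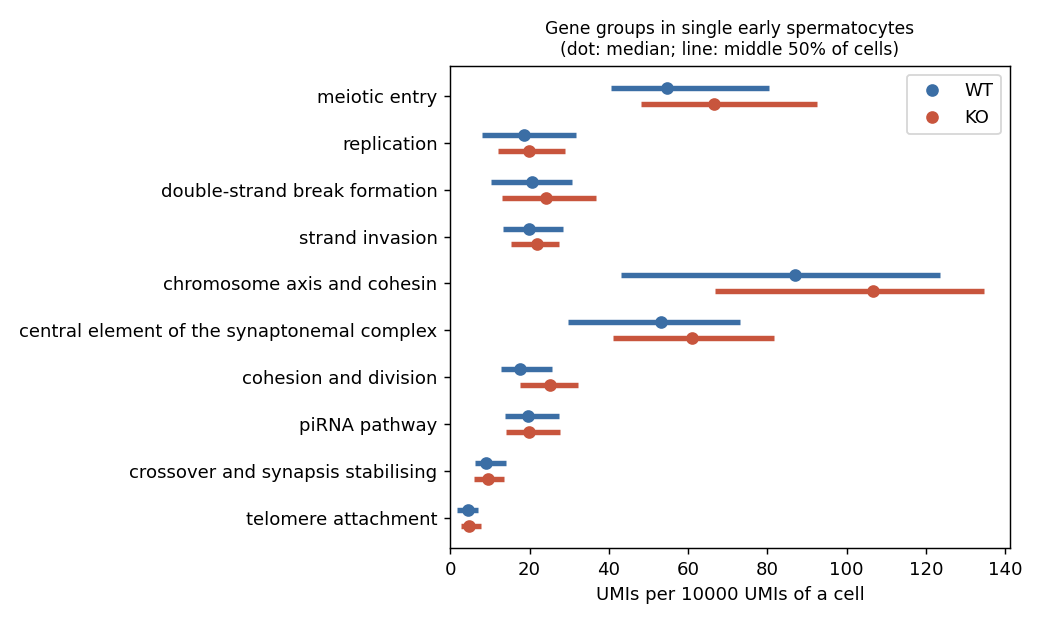
UMIs per 10000 of 10 gene groups in single early spermatocytes, with the transverse filament gene Sycp1 counted in the central element group; dots are medians over 69 WT (blue) and 271 KO (red) cells and lines span the middle 50% of cells. The lines overlap in every group, and the axis and cohesin medians, 87.1 and 107, lie furthest apart in UMIs.

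The m6A machinery had 15 of 24 genes with enough cells, with a median log2 ratio of 0.18. Of the 15, 1 was called higher and 2 lower (1.82% and 3.05% over all genes). Zc3h13, part of the methyltransferase complex, was at 110 CPM in WT and 192 CPM in KO (0.80, 0.45 to 1.16). Alkbh5 was 1 of the lower genes, and the other was Ythdf1, a cytoplasmic m6A reader, with 40 UMIs in WT and 59 in KO (-1.07, -1.68 to -0.46). The other demethylase gene, Fto, had 16 and 42 UMIs and too few cells. The meiotic reader Ythdc2 was at 108 and 122 CPM and was not called.

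In the piRNA pathway 1 of 12 genes was called, and lower, where 3.05% of all genes were called lower. This was Mov10l1, at 193 and 161 CPM. It was lower by its mean over cells, while its log2 ratio of sums was -0.26 with an interval from -0.55 to 0.03. Of 9 germline chromatin regulators only Hist1h2ba was called, and higher, where 1.82% of all genes were called higher. Of 9 genes listed for X inactivation and the post-meiotic X chromosome none were called. On the X chromosome, 6 of 126 genes with enough cells were called higher and 0 lower, against 1.82% and 3.05% over all genes. They were Atp6ap1, Usp26, Fmr1nb, Gm364, Bcap31 and Tmsb4x. Gm364 had 235 UMIs in WT and 1208 in KO members, a log2 ratio of 0.73 (0.52 to 0.93), and 0.02 in spermatogonia.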

How the data were processed

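RNA of single cells was profiled with the GEXSCOPE kit in 1 library per genotype, WT and KO. Per the methods, the authors took barcode and UMI from read 1, trimmed read 2 (fastp 1), aligned it and assigned it to genes (featureCounts 1.6.2); the submitters' processing notes also name FastQC 0.11.7, STAR 2.5.3a and Seurat 3.2.2n. The values are UMI counts per gene and barcode as the authors deposited them, with no normalization. The methods name GRCh38, a human build, although the symbols are those of the mouse; positions came from GENCODE vM21 (GRCm38), which held 35502 of 36547 symbols. The 12768 barcodes had at least 564 genes in WT and 833 in KO, so a limit of 500 genes removed none. A gene listed in 1 table only was taken as 0 in the other.

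The WT library held 80283221 UMIs and the KO library 82056760. Members were summed per library and given as CPM, with exact Poisson, Clopper-Pearson or conditional intervals (95%), which cover counting error only; a sum of 0 was set at 3 counts. Scripts ran under scipy 1.17.1, pandas 2.3.3, numpy 2.4.6 and Python 3.11.15. Doublets were scored by Scrublet, as scanpy 1.11.5 provides it (expected rate 0.06, 30 components). The steps were tested on simulated data. No test between genotypes was possible with 1 library each. The 25% minimum share of cells is that of the methods, and the size limit of 0.25 was set here.

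The members, lists and the rule for named genes were chosen with earlier results of these data known. That rule took the 10 largest log2 ratios in each direction (at least 100 UMIs), the 15 highest stage contrasts, the 10 largest ratios to each neighbour, Alkbh5, and called or abundant list members. Genes called under every alternative and X-linked calls were named after their values were seen. Alternatives changed the number of rule genes, late genes, doublets, depth, the denominator, the filters, the scaling and the weighting. Leaving out members with over 20000 UMIs or at least 100 spermatid UMIs per 10000, and equal weight per cell for genes and groups, were chosen after seeing the data.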

Additional observations from a re-analysis of the deposited data

How the results depend on the processing

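No paired analysis was possible because there was 1 library per genotype. The ratio of the shares of early spermatocytes stayed between 3.02 and 4.11 under the 7 alternatives. These do not include the narrower denominators given above. The ratio was 1.57 over early spermatocytes, spermatogonia and late spermatocytes together. Over early spermatocytes and spermatogonia alone it was 0.768 (0.588 to 1.02). The counts of genes called moved by over 1.5 times under 3 alternatives. With at least 4 rule genes, 152 genes were called higher and 221 lower, of which 47 and 84 were shared with the calls in the text. Without Scrublet doublets the counts were 117 and 252 (77 and 119 shared), and this removed 1 WT and 23 KO members. With equal weight per range they were 162 and 214 (60 and 94 shared). Without members that may hold RNA of a second cell they were 75 and 125 (62 and 87 shared). Median-of-ratios scaling gave 96 and 112. The cause of these moves was not tested.

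The log2 KO to WT ratio of UMI shares for X-linked, mitochondrially encoded and ribosomal protein genes was 0.046, 0.29 and 0.051 with at least 4 rule genes; 0.17, 0.21 and -0.088 with no late gene; 0.16, 0.60 and 0.21 without doublets; 0.14, 0.41 and 0.046 with equal weight per range; and 0.14, 0.26 and -0.037 without members that may hold a second cell. With equal weight per cell the last 2 were 0.29 and -0.032. The ribosomal protein ratio thus changed sign in 3 of these.

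Of the named genes that moved by over 1.5 times, the log2 ratio of B2m was 0.71 with at least 4 rule genes, while those of Ptgds, Lcn2 and Gm11942 rest on 1, 3 and 0 WT UMIs. The Leydig marker sum was at 2.92 with at least 4 rule genes and at 2.88 with no late gene. Several prophase group sums stayed above 0 but were smaller with at least 4 rule genes. The log2 ratio went from 0.41 to 0.17 for meiotic entry, 0.37 to 0.0053 for break formation and 0.45 to 0.23 for the break response. It went from 0.42 to 0.12 for the central element and from 0.49 to 0.24 for axis and cohesin. Without Scrublet doublets these were larger, at 0.50, 0.47, 0.57, 0.53 and 0.61 in that order. Group sums also changed sign. With at least 4 rule genes the log2 ratio was -0.13 for the rule genes, -0.12 for strand invasion, -0.023 for crossover and -0.012 for the X inactivation genes. With no late gene it was -0.075 for the rule genes, -0.075 for strand invasion, -0.11 for crossover and -0.0036 for the m6A machinery. Replication was at -0.0067 with equal weight per range, -0.022 with equal weight per cell and -0.028 without members that may hold a second cell. Equal weight per cell also gave -0.019 for strand invasion, -0.0059 for crossover and -0.0091 for germline chromatin, which was -0.019 without second cells. The number of cells limited WT more, with 69 members against 271 in KO.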
